A study of Mus musculus with 12 samples.

Results

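The T cell antigen receptor and its CD3 signalling chains were followed through 10 genes, which are the rows of the deposited count matrix with the symbols Cd3e, Cd3d, Cd3g, Cd247, Trac, Trbc1, Trbc2, Cd4, Lck and Cd5. They are 10 of 49585 genes in the matrix, and all 10 had enough counts to be tested. RNA was taken from whole lung of C57BL/6J mice that carried an MO4 melanoma under the skin, and 12 poly(A) libraries were sequenced, 3 in each of 4 groups. The combination group was 22 months old and received antibodies against PD-1 and against the IL-21 receptor by intraperitoneal injection. The aged anti-PD-1 group was 22 months old and received anti-PD-1. The aged control group was 22 months old and received an isotype-matched rat antibody, and the young anti-PD-1 group was 2 months old and received anti-PD-1. Anti-PD-1 and control antibody were given 3, 7 and 11 days after the tumour cells, and the days of the anti-IL-21R injections are not given in the sources used here. All groups carried the tumour, and no young group with control antibody was analysed here. No label states that the 3 libraries of a group are different mice, and the p-values therefore reflect the spread among these libraries alone, which could be technical. The question was how the transcripts of the T cell receptor complex in the lung differed with age under anti-PD-1, with anti-PD-1 in aged mice, and with blockade of the IL-21 receptor added to it.

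Most T cells recognise antigen through an alpha chain and a beta chain, which bind a peptide held by an MHC molecule but have almost no cytoplasmic tail of their own. The signal is carried by the CD3 gamma, delta, epsilon and zeta chains, whose cytoplasmic motifs are phosphorylated by the kinase Lck, brought to the complex by the coreceptor CD4 or CD8. In the lung, T cells lie in the airway wall, in the alveolar tissue and in lymphoid aggregates, and the genes of the complex are read mainly in T cells. The exceptions are known: NK cells also hold the zeta chain and Lck, some mouse dendritic cells carry CD4, and a subset of B cells carries CD5.

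Counted reads summed to between 16021877 and 22058620 per library, and the 10 genes had between 66 and 672 counts in a library. Levels are CPM, counts scaled to library size with TMM factors. Fold changes are log2 values ± SE from an edgeR quasi-likelihood fit over all 12 libraries and 18556 genes, and a gene is called where its Benjamini-Hochberg adjusted p over those genes was under 0.05. In whole tissue, fewer cells of a type and less RNA per cell cannot be told apart. Surfactant, airway and alveolar genes were abundant in every library (6 epithelial markers summed to between 28054 and 54494 CPM), which fits the label lung. Of the 6 transcripts listed as marks of immature thymic T cells, Ptcra had at most 2 counts and Rag2 at most 1 count in any library, while Cd1d1, which other cells also express, had 145 to 446 counts, and the 6 summed to between 8.73 and 22.9 CPM in every library.

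The 10 genes lie on 6 chromosomes of mouse build mm10, and 3 of them sit side by side. On chromosome 9, Cd3g (44969572 to 44980431) and Cd3d (44981786 to 44987339) start 1355 bases apart and are read in opposite directions, and Cd3e (44998740 to 45009627) follows, so that the cluster spans 40056 bases. Cd247 lies on chromosome 1 (165788681 to 165877277), Cd4 on chromosome 6 (124864692 to 124888221), Lck on chromosome 4 (129548344 to 129573641) and Cd5 on chromosome 19 (10718143 to 10738974). Trac lies on chromosome 14 (54220521 to 54224206), and Trbc1 (41538218 to 41539881) and Trbc2 (41546730 to 41548352) lie 6849 bases apart on chromosome 6. For the neighbours Cd3g, Cd3d and Cd3e, the 250 bases before each start are shown, from RefSeq for build GRCm38.p6 and 5′ to 3′ on the gene's own strand. Of these, Cd3d was not called for age, but no difference between the neighbours was shown. Its 95% interval of -0.30 to 1.02 on the log2 scale includes the 0.92 of Cd3g and of Cd3e. The table of promoters held 6 of the 10 genes. Capitals mark the letters GGAAG and TGNGGT on either strand. GGAAG is narrower than GGAA, the core that ETS factors bind, so a window without it can still hold that core. TGNGGT is wider than the RUNX core TGYGGT, where Y is C or T. The TGNGGT stretches marked below read TGAGGT or TGGGGT and so lie outside the RUNX core.
Cd3g, chr9:44980432-44980681, minus strand: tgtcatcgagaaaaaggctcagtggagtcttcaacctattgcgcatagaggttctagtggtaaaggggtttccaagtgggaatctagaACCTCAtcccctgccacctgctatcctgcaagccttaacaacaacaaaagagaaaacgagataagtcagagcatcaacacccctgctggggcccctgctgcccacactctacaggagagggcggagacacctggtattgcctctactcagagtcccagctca
Cd3d, chr9:44981536-44981785, plus strand: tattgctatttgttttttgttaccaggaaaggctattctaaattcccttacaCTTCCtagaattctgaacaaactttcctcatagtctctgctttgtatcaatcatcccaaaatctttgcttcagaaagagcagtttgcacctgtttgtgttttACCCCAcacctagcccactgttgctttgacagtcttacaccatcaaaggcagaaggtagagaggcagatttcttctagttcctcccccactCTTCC
Cd3e, chr9:45009612-45009861, minus strand: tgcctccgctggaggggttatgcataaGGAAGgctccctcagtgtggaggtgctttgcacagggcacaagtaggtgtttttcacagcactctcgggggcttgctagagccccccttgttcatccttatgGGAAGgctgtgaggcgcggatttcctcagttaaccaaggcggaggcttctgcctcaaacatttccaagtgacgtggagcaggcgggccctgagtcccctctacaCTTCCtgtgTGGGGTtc
The window of Cd3g held 0 matches to GGAAG and 1 to TGNGGT, that of Cd3d 2 and 1, and that of Cd3e 3 and 1. Of 32851 promoter windows of the same length in the mouse table, 64.1% held GGAAG at least once and 40.1% held TGNGGT at least once, so a match is common. The last bases of the Cd3e window lie inside the gene as the deposited annotation places its end.

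The genes of the beta chain constant region exist in a pair of nearly identical copies, which decides how far their counts can be read one by one. The coding parts of Trbc1 and Trbc2 in GENCODE M21 were 95.3% identical over aligned bases, with 24 bases that differ and 6 gap positions. In the first coding exon of Trbc1, which holds 375 coding bases, 1 base differed from Trbc2, whereas in the third, of 119 bases, 20 did. Of all stretches of 50 bases in the coding part of Trbc1, 61.1% occurred unchanged in Trbc2. The third coding exons are shown because they hold most of the letters that can tell the copies apart, and capitals mark bases whose partner in the other copy differs. The annotated exon has 119 coding bases in Trbc1 and 107 in Trbc2, which goes on into a further coding exon. The alignment paired the last capitals of the Trbc1 line with bases of that further exon. Those pairs need not be corresponding bases, and the 20 differences and the identity include them.
Trbc1, chr6:41539229-41539347, plus strand: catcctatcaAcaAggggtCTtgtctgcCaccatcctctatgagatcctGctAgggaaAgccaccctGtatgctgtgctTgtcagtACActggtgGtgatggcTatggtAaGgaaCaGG
Trbc2, chr6:41547772-41547878, plus strand: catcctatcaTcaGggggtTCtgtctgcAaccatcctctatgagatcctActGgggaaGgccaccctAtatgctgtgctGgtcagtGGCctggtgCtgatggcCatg
How reads that fit both copies were counted is not given in the sources used here, so the split between Trbc1 and Trbc2 is uncertain and their sum is given as well.

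Across the 12 libraries the constant region genes had the highest level per length of exon. Mean levels were 36.5 ± 10.1 CPM per kb of exon for Trbc2, 25.7 ± 4.66 for Trbc1 and 12.5 ± 3.54 for Trac (SD over 12 libraries of all groups). The delta chain gene Cd3d stood at 7.93 ± 2.49 CPM per kb, Lck at 6.97 ± 2.06 and the gamma chain gene Cd3g at 5.24 ± 1.75. Lower levels per kb were found for Cd247 (2.84 ± 0.544), Cd3e (2.33 ± 0.871), Cd4 (1.85 ± 0.904) and Cd5 (1.11 ± 0.377). The lengths join the exons of all annotated transcripts of a gene, which lowers the value of genes with long minor transcripts.

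**Figure D1:**
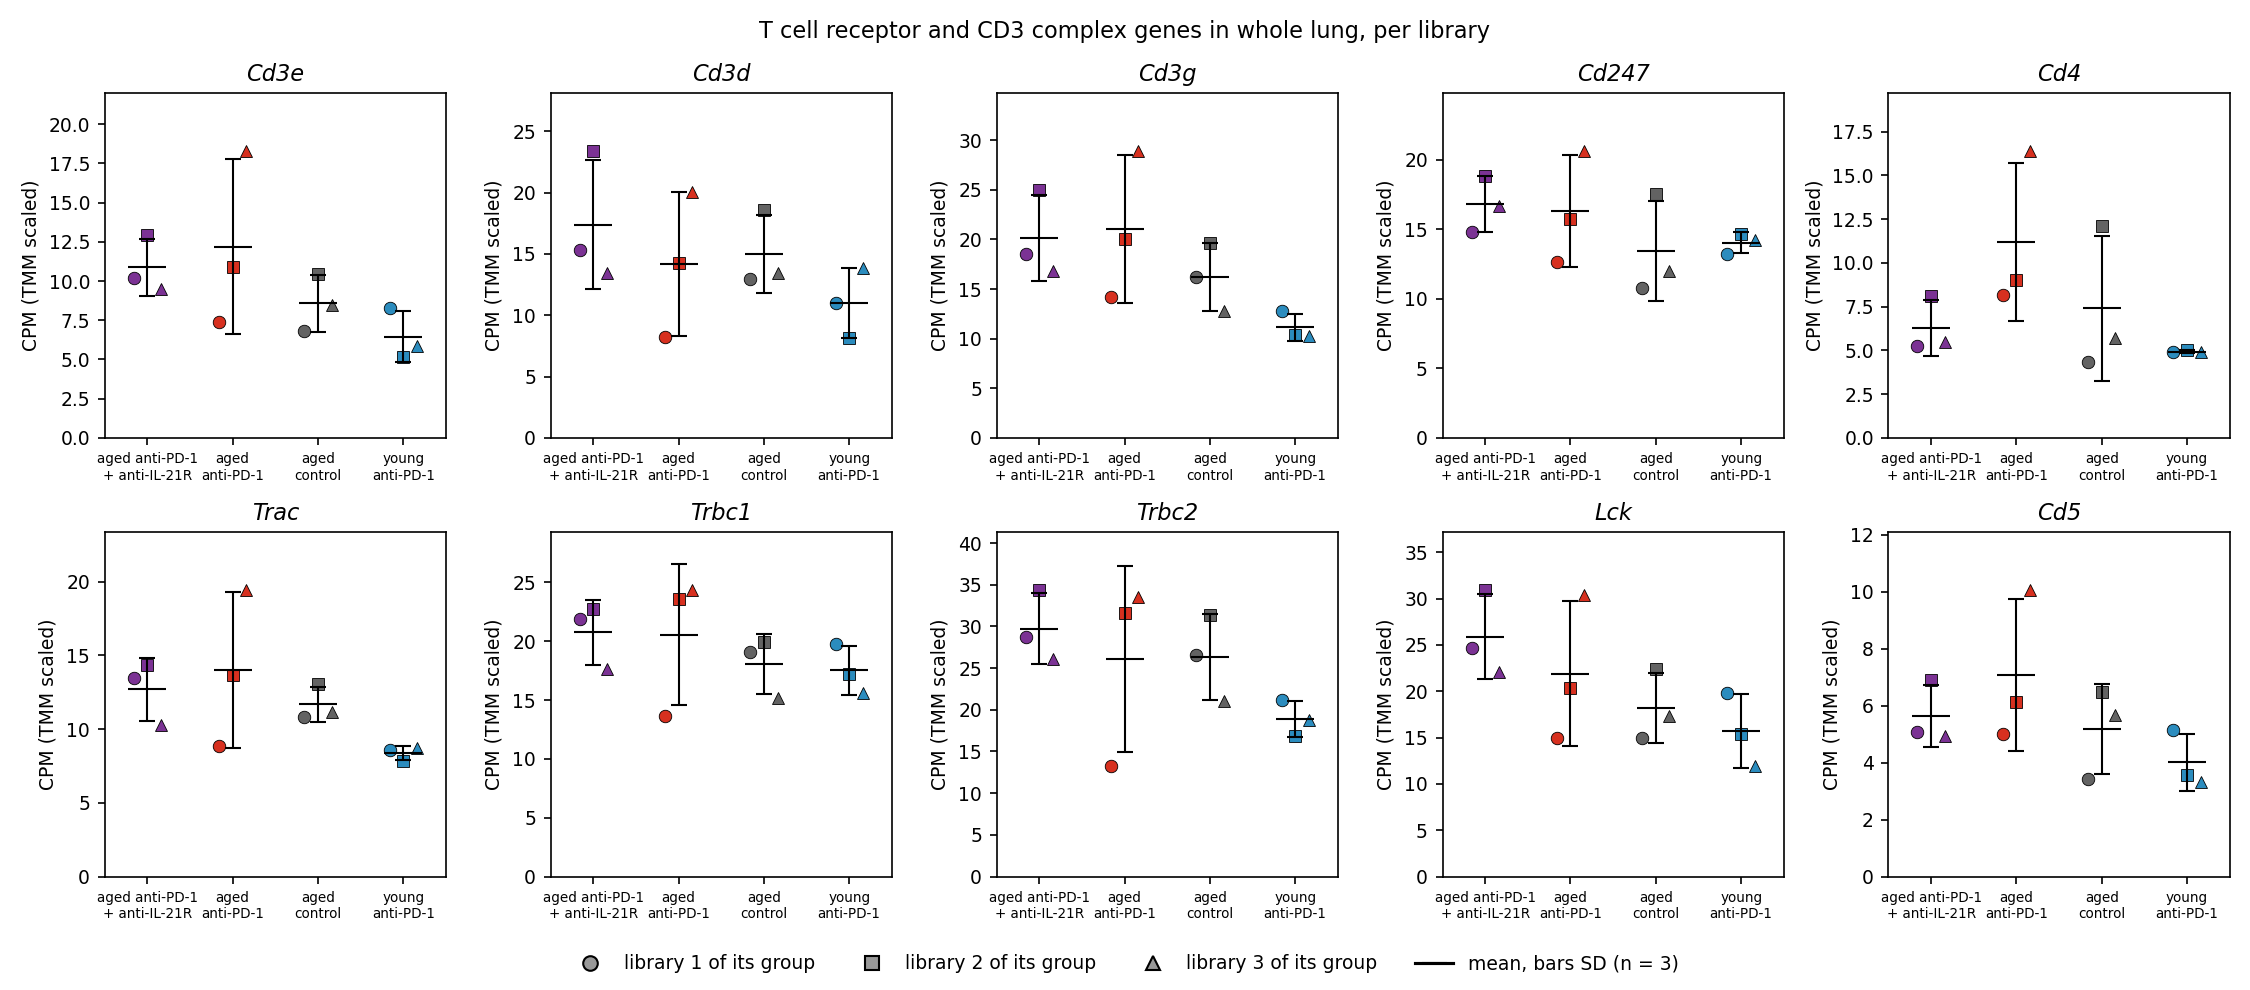
TMM-scaled CPM of the 10 genes in each library (y axis from 0), for the combination, aged anti-PD-1, aged control and young anti-PD-1 groups (x axis); horizontal lines are means, bars are SD with 3 libraries a group, and marker shapes give the library number. Library 3 of the aged anti-PD-1 group was the highest of its group in all 10 panels and library 1 the lowest, while the 3 young libraries lay close together for Cd4 (4.88 to 5.003 CPM) and Trac (7.86 to 8.72 CPM).

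Aged lungs held more transcripts of part of the complex than young lungs under the same anti-PD-1 treatment. Cd3e, Cd3g, Trac and Cd4 were called higher in aged mice, by 0.73 to 1.18 on the log2 scale, whereas Cd3d, Cd247, Trbc1, Trbc2, Lck and Cd5 were not called. Thus 4 of the 10 genes were higher and 0 lower, where 8.09% of all genes tested were called higher, 7.16% lower and 15.3% in either direction. At an unadjusted p under 0.05 there were 5 of the 10, against 29.5% of all genes. All 10 fold changes were positive, with a median of 0.60, against -0.0069 for all genes tested. The ranges of aged and young libraries did not overlap for 3 of the 10, where 19.7% of all genes lay wholly higher in the aged group and 39.6% did not overlap in either direction. The calls rested on few libraries: without library 3 of the aged anti-PD-1 group 0 of the 10 genes were called and the median was 0.33, and without library 2 or library 3 of the young group 0 were called as well. Without library 2 of the aged or library 1 of the young group 2 were called, and without library 1 of the aged group 6 were called, with a median of 0.88. Other lung cells moved with age as well: 4 of 6 epithelial markers were called lower (2 or 3 in each fit that left out 1 library, with Sftpa1 and Sftpc called in all 6 such fits), and the 6 summed to 28054 to 32210 CPM in aged and 42063 to 54494 CPM in young anti-PD-1 libraries, with none at 0 throughout. Their part in the values of the 10 genes was not tested.

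Among the signalling chains, Cd3g, which encodes CD3 gamma, had the smallest adjusted p. It stood at 18.5, 25.0 and 16.8 CPM in the combination libraries, 14.2, 20.1 and 28.9 in the aged anti-PD-1 libraries, 16.2, 19.6 and 12.8 in the aged control libraries and 12.7, 10.4 and 10.2 in the young anti-PD-1 libraries. All 9 aged libraries lay above all young ones, the lowest of them, from the control group, by little. The 9 span all aged treatments, and the share of all genes separated in this way was not computed. Aged against young anti-PD-1 lungs differed by 0.92 ± 0.24 (edgeR adjusted p 0.0231), a call lost without library 3 of the aged group (0.62, edgeR adjusted p 0.108) or library 2 or 3 of the young group (edgeR adjusted p 0.0832 and 0.0901).

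Cd3e encodes CD3 epsilon, which pairs with gamma and with delta and is needed to assemble the receptor. Its levels were 10.2, 12.9 and 9.50 CPM in the combination libraries, 7.39, 10.9 and 18.3 in the aged anti-PD-1 libraries, 6.80, 10.4 and 8.50 in the aged control libraries and 8.26, 5.15 and 5.88 in the young libraries. One aged anti-PD-1 library lay within the young range, and the other two lay above it. The age difference was 0.92 ± 0.29 and passed narrowly (edgeR adjusted p 0.0499). It did not pass with limma-voom (adjusted p 0.0871), without the filter on low counts (edgeR adjusted p 0.0961), in a fit of the 2 groups alone (edgeR adjusted p 0.0725), or without library 2 or 3 of either group (highest edgeR adjusted p 0.252). An antisense gene overlaps Cd3e on the opposite strand and had 27 to 79 counts a library. The strand setting of the counting is not given in the sources used here, so reads of the pair cannot be told apart.

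Cd3d, the CD3 delta gene that neighbours Cd3g, was not called. It had 15.3, 23.4 and 13.5 CPM in combination libraries, 8.23, 14.3 and 20.05 in aged anti-PD-1 libraries, 12.9, 18.6 and 13.4 in aged control libraries and 11.0, 8.16 and 13.8 in young libraries. The aged and young ranges overlapped, and the lowest aged anti-PD-1 library was close to the lowest young one. The difference was 0.36 ± 0.31 (edgeR adjusted p 0.469), with a 95% interval of -0.30 to 1.02.

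Cd247 encodes the zeta chain, which carries most of the phosphorylation motifs of the receptor. Levels were 14.8, 18.9 and 16.7 CPM in combination libraries, 12.6, 15.7 and 20.6 in aged anti-PD-1 libraries, 10.8, 17.5 and 11.97 in aged control libraries and 13.2, 14.7 and 14.3 in young libraries. The 4 groups overlapped, and the aged control group had the lowest mean. The age difference was 0.22 ± 0.19 (edgeR adjusted p 0.5004; 95% interval -0.20 to 0.63). Since NK cells also hold this chain, their markers are given beside it: 8 NK genes summed to 54.8 to 67.5 CPM in the combination, 62.6 to 77.4 in the aged anti-PD-1, 33.6 to 67.4 in the aged control and 79.9 to 173 in the young libraries, and none of the 8 was at 0 throughout. Most of each sum was Gzma in the aged and young anti-PD-1 libraries, at 32.8 to 39.996 and 52.7 to 112 CPM. Ncr1, Klrb1c, Klra8, Klra9 and Klre1 overlapped between these groups, while Klra4 lay wholly lower and Eomes wholly higher in aged libraries. Of all genes, 19.9% lay wholly lower and 19.7% wholly higher. By edgeR, Gzma was called lower with age (-1.08 ± 0.33, edgeR adjusted p 0.0467) and Eomes higher (1.004 ± 0.28, edgeR adjusted p 0.0294). Of all genes tested, 7.16% were called lower with age and 8.09% higher. Gzma kept its call only without library 3 of the young group, and Eomes only without library 2 of the aged or library 1 of the young group (highest edgeR adjusted p 0.163 and 0.119). Their part in the Cd247 values was not tested. Pou2f1 overlaps Cd247 on the opposite strand, with 267 to 468 counts a library.

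The constant region of the alpha chain, Trac, is used by every alpha beta T cell. Its levels were 13.5, 14.3 and 10.3 CPM in combination libraries, 8.86, 13.7 and 19.4 in aged anti-PD-1 libraries, 10.8, 13.0 and 11.2 in aged control libraries and 8.58, 7.86 and 8.72 in young libraries. All 9 aged libraries lay above all young ones, although the lowest aged anti-PD-1 library did so by little. As for Cd3g, these 9 span all aged treatments, and the share of all genes separated in this way was not computed. Aged against young anti-PD-1 lungs differed by 0.73 ± 0.23 (edgeR adjusted p 0.0429). The call was lost in every fit that left out 1 library except the one without library 1 of the aged group (highest edgeR adjusted p 0.225), with limma-voom (adjusted p 0.0871) and in a fit of the 2 groups alone (edgeR adjusted p 0.0611).

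Of the beta chain copies, Trbc1 had 21.9, 22.8 and 17.6 CPM in combination libraries, 13.6, 23.6 and 24.4 in aged anti-PD-1 libraries, 19.1, 19.97 and 15.2 in aged control libraries and 19.8, 17.2 and 15.6 in young libraries. Trbc2 had 28.8, 34.4 and 26.0 CPM in combination libraries, 13.3, 31.6 and 33.5 in aged anti-PD-1 libraries, 26.5, 31.4 and 21.1 in aged control libraries and 21.2, 16.9 and 18.7 in young libraries. For both copies library 1 of the aged anti-PD-1 group was below every young library and the other two of that group were above every young one. Neither was called for age (0.23 ± 0.20, edgeR adjusted p 0.485 for Trbc1 and 0.46 ± 0.27, edgeR adjusted p 0.283 for Trbc2), and without that library Trbc2 was called (0.78, edgeR adjusted p 0.0110). Summed into 1 gene before the fit, the copies differed by 0.35 ± 0.23 (edgeR adjusted p 0.340).

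Cd4 showed the largest age difference of the 10 genes. Its product binds MHC class II and marks helper and regulatory T cells. It stood at 5.23, 8.12 and 5.47 CPM in combination libraries, 8.19, 9.05 and 16.4 in aged anti-PD-1 libraries, 4.36, 12.1 and 5.72 in aged control libraries and 4.88, 5.003 and 4.90 in young libraries. All aged anti-PD-1 libraries lay above all young ones, and the young libraries hardly differed from each other. The difference was 1.18 ± 0.35 (edgeR adjusted p 0.0393). The call was lost without library 3 of the aged group (0.80, edgeR adjusted p 0.176), without any 1 of the young libraries (edgeR adjusted p 0.0966 to 0.115), and without the filter on low counts (edgeR adjusted p 0.113). Of 6 dendritic cell markers, which are given because some of these cells carry CD4, 3 were called higher with age and 0 lower. The 3 were Zbtb46 (0.73 ± 0.17), Clec9a (0.68 ± 0.21) and Xcr1 (2.05 ± 0.42). The list does not single out the dendritic cells that carry CD4. Flt3 lay wholly higher in aged libraries, as did 19.7% of all genes. Cd209a lay wholly lower, as did 19.9% of all genes. It had 3.32, 5.28 and 3.34 CPM in aged and 5.89, 5.65 and 5.59 CPM in young anti-PD-1 libraries. The ranges of Siglech overlapped, at 2.27, 4.52 and 3.44 CPM in aged and 4.43, 7.46 and 4.36 CPM in young libraries. The 6 summed to 56.9 to 76.9 CPM in aged and 42.8 to 54.8 CPM in young anti-PD-1 libraries, and none was at 0 throughout. The count of 3 was 1, with Xcr1 the gene that passed, without library 3 of the aged or library 2 or 3 of the young group, and the part of these cells in the Cd4 result was not tested.

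Lck, the kinase that starts the signal, and Cd5, a surface receptor that dampens it, were not called. Lck had 24.6, 31.0 and 22.1 CPM in combination libraries, 14.99, 20.3 and 30.4 in aged anti-PD-1 libraries, 14.9, 22.3 and 17.3 in aged control libraries and 19.9, 15.4 and 11.9 in young libraries. Cd5 had 5.06, 6.91 and 4.95 CPM in combination libraries, 4.998, 6.13 and 10.1 in aged anti-PD-1 libraries, 3.43, 6.49 and 5.66 in aged control libraries and 5.16, 3.55 and 3.33 in young libraries. The aged and young ranges overlapped for both. The age difference was 0.47 ± 0.25 for Lck (edgeR adjusted p 0.229; 95% interval -0.07 to 1.02). For Cd5 it was 0.81 ± 0.29 and missed the threshold (edgeR adjusted p 0.0791), but passed with DESeq2 (adjusted p 0.0442) and without library 1 of the aged group (edgeR adjusted p 0.0458). Beside Cd5, which some B cells carry, 8 of 10 B cell markers were called higher with age, where 8.09% of all genes tested were. The 10 markers summed to 495 to 546 CPM in aged and 247 to 290 CPM in young anti-PD-1 libraries. The count of 8 was 5 without library 3 of the aged or library 2 of the young group. None of the 10 was at 0 throughout, and their part in the Cd5 values was not tested.

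In aged mice, anti-PD-1 against control antibody gave no call among the 10 genes. Their fold changes ran from -0.08 for Cd3d to 0.60 for Cd4, with a median of 0.27 against -0.016 for all genes. By edgeR 0 of the 10 were called, where 10.9% of all genes were (5.34% higher and 5.58% lower), and 0 (background 28.9%) had an unadjusted p under 0.05, while DESeq2 and limma-voom also called 0. The groups overlapped for all 10, where 32.5% of all genes did not overlap (16.1% higher and 16.4% lower). The largest differences were those of Cd4 (0.60 ± 0.34, edgeR adjusted p 0.267; 95% interval -0.14 to 1.34) and Cd3e (0.51 ± 0.29, edgeR adjusted p 0.264; 95% interval -0.12 to 1.13), and both upper bounds exceed the age difference of the gene. In Cd3g the difference was 0.37 ± 0.24 and in Trac 0.26 ± 0.22 (edgeR adjusted p 0.318 and 0.473). Without library 3 of the aged anti-PD-1 group the median was 0.06, and without library 2 of the control group it was 0.48.

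Adding anti-IL-21R to anti-PD-1 in aged mice gave no call among the 10 genes, of which Cd4 had the largest difference. Combination against aged anti-PD-1 lungs gave 0 of 10 called by edgeR, DESeq2 and limma-voom, where 9.02% of all genes were called by edgeR (4.67% higher and 4.35% lower). At an unadjusted p under 0.05 there was 1 of the 10, against 26.4% of all genes. The median was -0.02 against -0.0086 for all genes. That 1 gene was Cd4, at -0.84 ± 0.35 (unadjusted p 0.0327, edgeR adjusted p 0.148; 95% interval -1.59 to -0.08). Its highest combination library, at 8.12 CPM, lay just below its lowest aged anti-PD-1 library, at 8.19 CPM, so the ranges did not overlap, as for 16.5% of all genes in that direction, 15.7% in the other and 32.2% in both together. The other 9 overlapped, with differences from -0.32 ± 0.29 for Cd5 to 0.30 ± 0.30 for Cd3d (edgeR adjusted p 0.517 and 0.572). Intervals at 95% were -0.57 to 0.45 for Cd3g, -0.62 to 0.35 for Trac and -0.30 to 0.79 for Lck, so a change of either sign was compatible with these libraries. Scaled by library totals alone, the median of all genes was -0.21, that of the 10 genes was -0.22, and Cd4 was called (-1.03, edgeR adjusted p 0.0457).

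The combination group against the aged control group gave no call in the complex. The 10 fold changes ran from -0.24 ± 0.36 for Cd4 to 0.51 ± 0.25 for Lck, with a median of 0.21 against -0.0092 for all genes. By edgeR 0 of the 10 were called at an adjusted or an unadjusted p under 0.05, in a comparison where 0% of all genes were called and 6.62% had an unadjusted p under 0.05. DESeq2 called 76 genes, of which 0 were among the 10, and limma-voom called 0. The ranges overlapped for all 10 genes, where 9.71% of all genes did not overlap (3.92% higher and 5.78% lower). For Lck the adjusted p was 0.785 and the 95% interval -0.04 to 1.06. This comparison shares its libraries with those above, so the values are given side by side and are not independent of them.

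**Figure D2:**
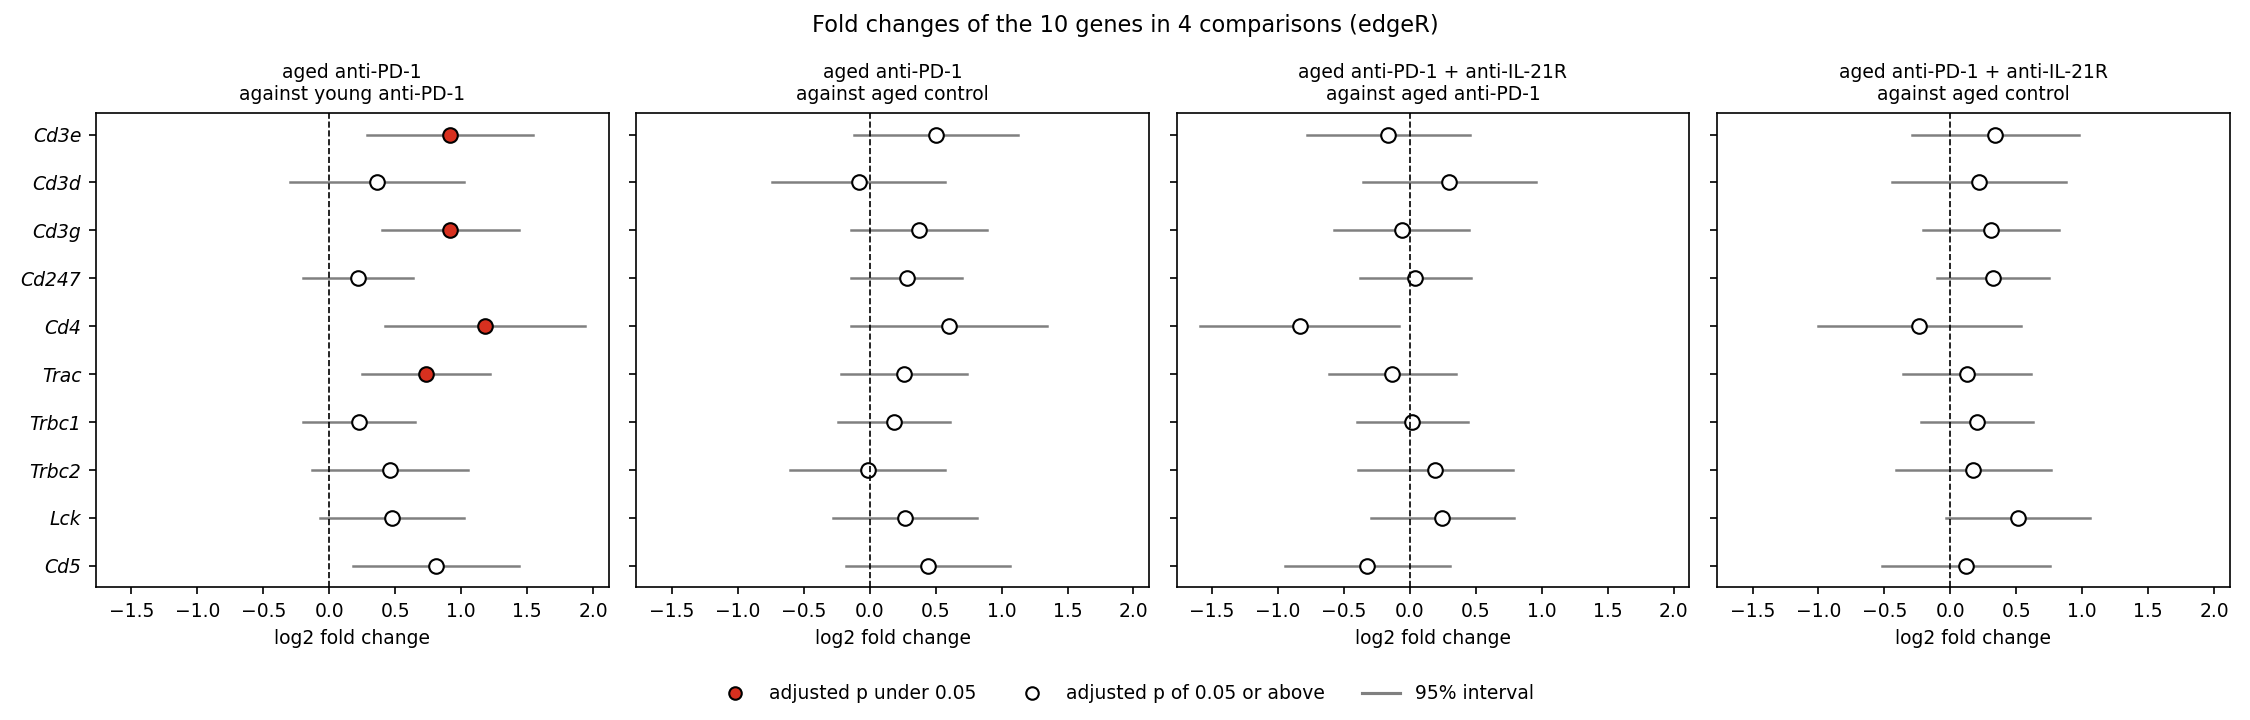
Fold changes on the log2 scale (x axis) of the 10 genes (rows) in the 4 comparisons, from the edgeR fit with 3 libraries a group; points are estimates, lines are 95% intervals, and filled points have an adjusted p under 0.05. The 4 filled points, Cd3e, Cd3g, Cd4 and Trac, are all in the panel of aged against young anti-PD-1, and Cd4 is the gene whose interval lies below 0 for the combination against aged anti-PD-1.

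Ordered by mean, most neighbouring groups could not be told apart. For Cd3e, Cd3g, Cd4, Trac and Cd5 the aged anti-PD-1 group had the highest mean, and for Cd3d, Cd247, Trbc1, Trbc2 and Lck the combination group had. The young group was the lowest in 9 genes, with Cd247 the exception. The ranges of neighbours in this order overlapped for all but 3 pairs. Aged control lay wholly above young for Cd3g and Trac, as did 14.5% of all genes tested, and combination lay wholly above young for Cd4, as did 16.9% of all genes tested. Neither pair of groups was tested. The 10 genes summed to 143 to 198 CPM in combination libraries, 106 to 222 in aged anti-PD-1 libraries, 123 to 172 in aged control libraries and 104 to 125 in young libraries.

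Within a group the genes of the complex went up and down together from library to library. Library 2 of the combination group, library 3 of the aged anti-PD-1 group and library 2 of the aged control group were each the highest of their group for all 10 genes, and library 1 of the aged anti-PD-1 group was the lowest for all 10. In the young group the highest value fell in library 1 for 6 genes and in each other library for 2. Across the 12 libraries the log2 CPM of the 45 pairs of genes had Pearson's r of 0.446 to 0.943, with a median of 0.767. After the group means were taken away r was 0.465 to 0.953, with a median of 0.764. These correlations describe 12 libraries that share depth and scaling and carry no test.

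**Figure D3:**
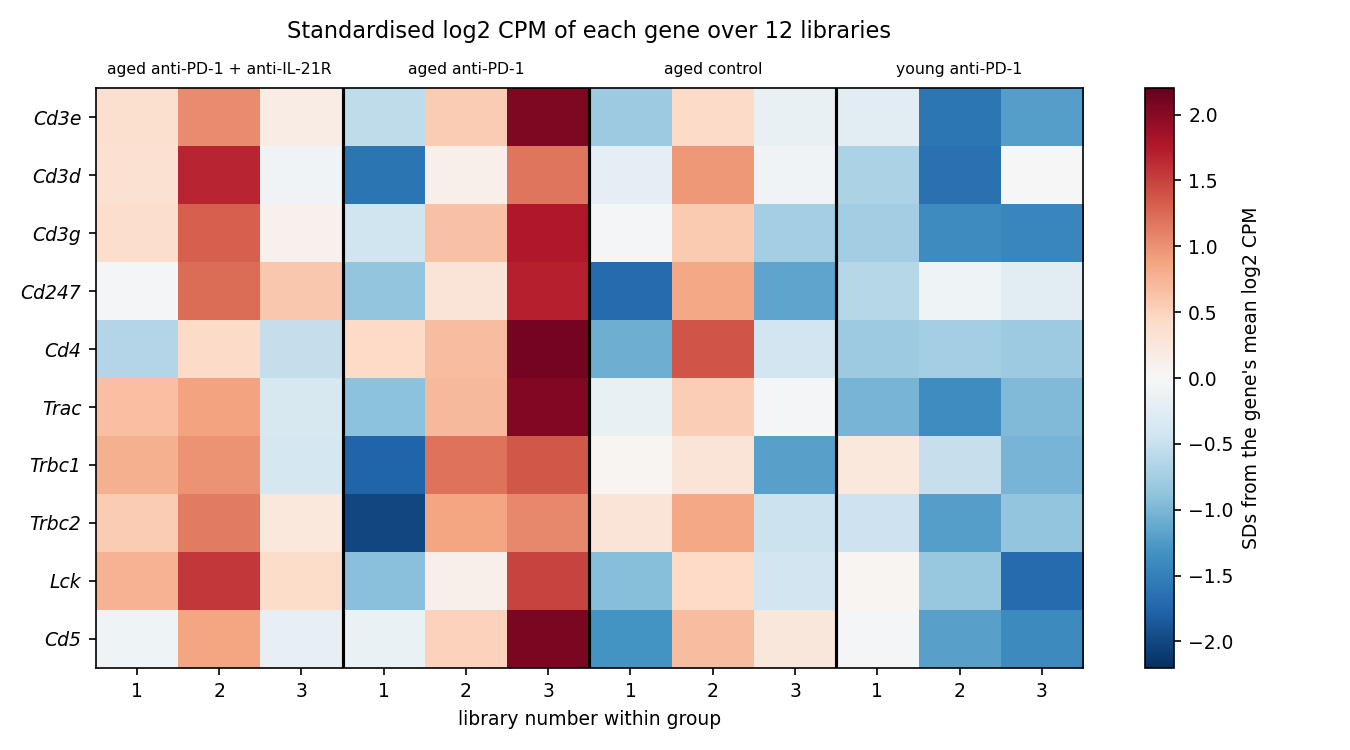
Log2 CPM of each gene (rows) in each of 12 libraries (columns, grouped as combination, aged anti-PD-1, aged control and young anti-PD-1), standardised to the mean and SD of the gene over the 12; red is above and blue below its mean. Columns tend to have 1 colour over all rows, as in library 3 of the aged anti-PD-1 group, which is red in all 10 rows, and library 1 of that group, which is blue in 9 rows and red for Cd4.

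The 13948 other genes ranked here had a mean log2 CPM of 0 or more. Receptor and antibody segments, unconfirmed genes and genes with a predicted or clone name were left out. Those most like the mean of the 10 standardised genes over 12 libraries were Fam189b (r = 0.93), Flt3 (0.92), Mcm3 (0.92), Cst7 (0.91), Ccl5 (0.91), Ccndbp1 (0.90), Cd6 (0.90) and Tubb5 (0.90). Cd6 is a surface receptor of T cells related to CD5, and Ccl5 a chemokine made by activated T and NK cells. With group means taken away, the highest were Bcl11b (0.97), Lat (0.97), Eif3l (0.96), Mcm3 (0.94), Thumpd2 (0.93), Denr (0.93), Rpl14-ps1 (0.93) and Icos (0.92), with 1 gene shared by both lists of 8. Bcl11b is a transcription factor that holds T cell identity, Lat the adaptor on which the receptor's signal is assembled, and Icos a costimulatory receptor. With 12 libraries and so many genes ranked, these orders are descriptions and carry no test.

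Relative to the CD3 chains, Cd4 had its lowest share in the combination group. This ratio and the ones that follow were chosen after the values were seen. Cd4 amounted to 11.9%, 13.2% and 13.8% of the summed CPM of Cd3e, Cd3d and Cd3g in the combination libraries, against 27.5%, 20% and 24.4% in the aged anti-PD-1 libraries, 12.1%, 24.9% and 16.5% in the aged control libraries and 15.3%, 21.1% and 16.4% in the young libraries. Combination and aged anti-PD-1 libraries did not overlap. The mean log2 ratio was -2.95 ± 0.11 in the combination and -2.07 ± 0.23 in the aged anti-PD-1 group (SD, n = 3 each), a difference of -0.88. The two-sided exact permutation test gave p = 0.1, the smallest that 3 libraries against 3 allow, and 0.640 after Benjamini-Hochberg adjustment over 32 ratio tests. Leaving out each library in turn gave differences of -1.001 to -0.77, and with Trac in place of the CD3 genes the difference was -0.71.

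Cd8a, a chain of the other coreceptor, amounted to 33.3%, 18.2% and 22.2% of the same CD3 sum in combination libraries and 11.99%, 22.8% and 26.3% in aged anti-PD-1 libraries, which overlapped (difference of mean log2 ratio 0.30, exact permutation p 0.6). The log2 ratio of Cd8a to Cd4 averaged 0.88 ± 0.54 in the combination and -0.30 ± 0.78 in the aged anti-PD-1 group (SD, n = 3 each), a difference of 1.18 with no overlap (exact permutation p 0.1, adjusted 0.640). That ratio averaged 0.25 ± 0.84 in the aged control and 0.24 ± 0.42 in the young group, and both overlapped the combination. Lck was 55.9%, 50.5% and 55.6% of the CD3 sum in combination libraries, against 50.4%, 44.9% and 45.1% in aged anti-PD-1 libraries and 41.5%, 45.9% and 49.8% in aged control libraries. The combination libraries lay above both of these aged groups, by 0.21 and 0.24 on the log2 scale (exact permutation p 0.1 each, adjusted 0.640). Young libraries stood at 62.1%, 64.8% and 39.8%, on both sides of the combination. Cd5 was 11.5%, 11.3% and 12.4% of the CD3 sum in combination libraries, wholly below the 16.8%, 13.6% and 14.97% of aged anti-PD-1 libraries (difference of mean log2 ratio -0.36, exact permutation p 0.1, adjusted 0.640). Its share was 9.54%, 13.3% and 16.3% in aged control and 16.1%, 14.98% and 11.1% in young libraries, and both overlapped the combination. Beside the Cd4 ratio, 2 of 6 dendritic cell markers were called lower in combination than in aged anti-PD-1 lungs, Zbtb46 (-0.79 ± 0.18, edgeR adjusted p 0.0177) and Clec9a (-1.08 ± 0.22, edgeR adjusted p 0.0129), and the 6 summed to 44.6 to 50.6 CPM in combination and 56.9 to 76.9 CPM in aged anti-PD-1 libraries. Both calls were lost without library 2 of the combination group, and that of Zbtb46 without library 2 of the aged anti-PD-1 or library 3 of the combination group as well. Of all genes, 4.35% were called lower. Siglech and Cd209a were not called but lay wholly higher in the combination, as did 15.7% of all genes, while Flt3 and Xcr1 overlapped. Siglech had 7.08, 7.61 and 4.75 CPM in combination against 2.27, 4.52 and 3.44 in aged anti-PD-1 libraries. Cd209a had 5.73, 6.59 and 5.34 CPM against 3.32, 5.28 and 3.34. The part of dendritic cells in the Cd4 ratio was not tested, and these 6 markers do not single out the cells that carry CD4.

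**Figure D4:**
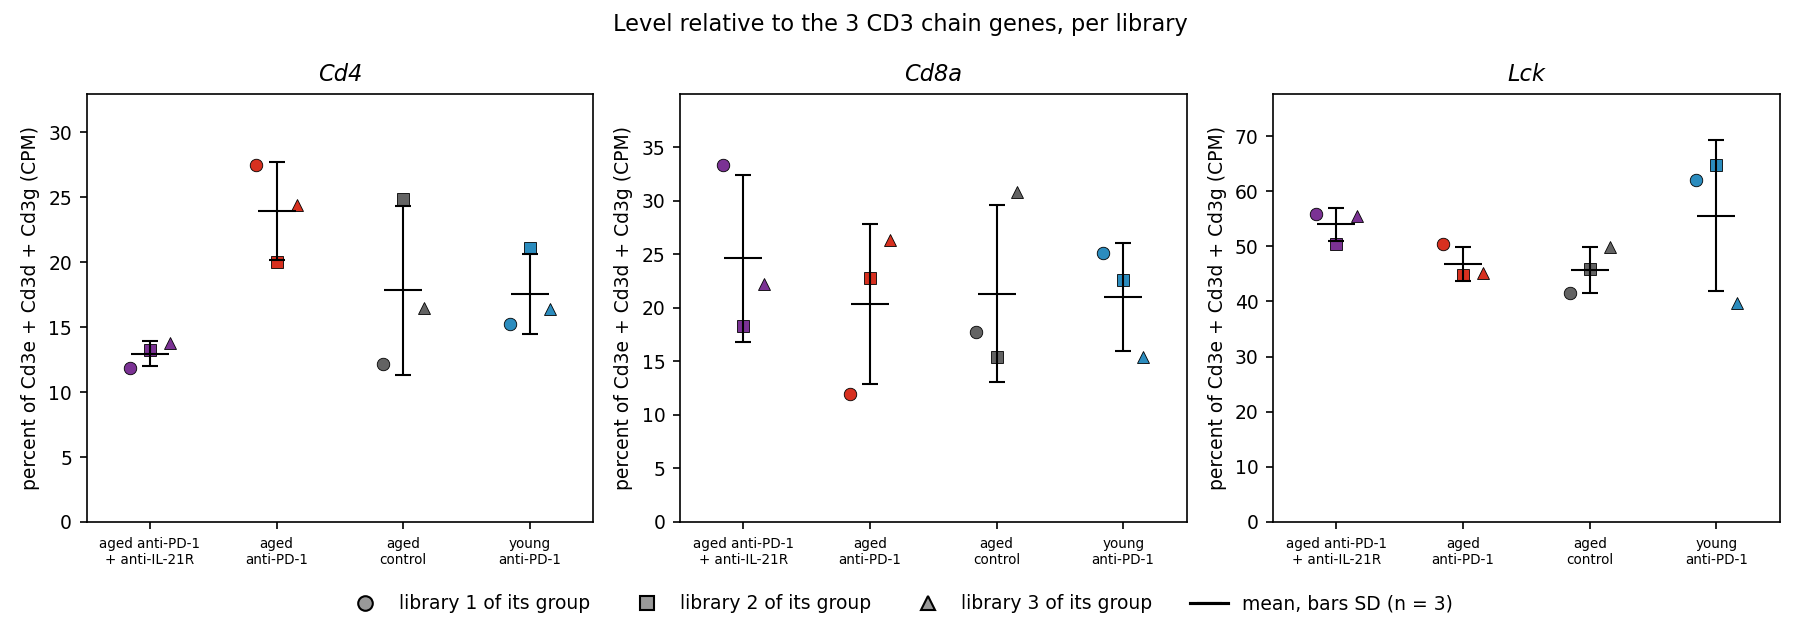
Cd4, Cd8a and Lck as a percent of the summed CPM of Cd3e, Cd3d and Cd3g (y axes from 0) in each library, by group (x axis); lines are means and bars SD with 3 libraries a group. For Cd4 the 3 combination libraries lie at 11.9 to 13.8%, below all 3 aged anti-PD-1 libraries at 20 to 27.5%.

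The rest of the pathway was read from lists of genes drawn up with earlier results of these data known. Of 14 surface partners and coreceptors, 7 were higher and 0 lower in aged than in young anti-PD-1 lungs, with a median of 0.65. Of all genes tested, 8.09% were called higher and 7.16% lower in that comparison, with a median of -0.0069. Slamf1, a receptor of the SLAM family, stood at 14.0, 14.4 and 18.6 CPM in aged and 3.70, 5.55 and 3.97 CPM in young libraries (1.83 ± 0.21, edgeR adjusted p 0.000311). Cd226, an activating receptor, stood at 11.3, 15.5 and 19.4 CPM in aged and 4.98, 6.55 and 5.64 CPM in young libraries (1.43 ± 0.24, edgeR adjusted p 0.00262). Both were called in every fit that left out 1 library, whereas the calls of the costimulator Icos (1.15 ± 0.27, edgeR adjusted p 0.0132) and the adhesion receptor Cd2 (0.57 ± 0.17, edgeR adjusted p 0.0381) were lost in 2 and 5 of 6 such fits (highest edgeR adjusted p 0.0718 and 0.169). Icos lost its call without library 3 of the aged or library 2 of the young group, and Cd2 kept it only without library 2 of the aged group. The count of 7 was 6 without library 1 of the aged group and 2 to 4 without any other 1 of the 6 libraries. Cd8a was at 3.57, 10.3 and 17.7 CPM in aged and 8.03, 5.35 and 4.61 CPM in young libraries, and was not called (0.80 ± 0.44, edgeR adjusted p 0.250).

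Downstream of the receptor, 10 of 24 kinases and adaptors were higher with age and 0 lower (median 0.50), where 8.09% of all genes tested were called higher and 7.16% lower. Lat stood at 19.1, 26.4 and 32.2 CPM in aged and 12.6, 11.9 and 11.8 CPM in young libraries (1.10 ± 0.18, edgeR adjusted p 0.00204). Vav1, an exchange factor for Rac (0.87 ± 0.15, edgeR adjusted p 0.00220), Prkcq, the kinase PKC theta (0.74 ± 0.13, edgeR adjusted p 0.00275), and Tespa1, an adaptor of thymocyte selection (1.51 ± 0.28, edgeR adjusted p 0.00371), rose too. Each of these 4 was called in all fits that left out 1 library, and the count of 10 ran from 5 to 10 in them, with 5 without library 3 of either group and 6 without library 2 of the young group. Genes that attenuate the signal moved in the same direction: 8 of 15 were higher and 0 lower (median 0.50). They included the adaptor Lax1 (1.11 ± 0.16, edgeR adjusted p 0.00117), the phosphatases Ptpn6 (0.76 ± 0.14, edgeR adjusted p 0.00318) and Ptpn22 (0.98 ± 0.21, edgeR adjusted p 0.00894), and Ubash3b, a phosphatase of the Sts family (0.93 ± 0.16, edgeR adjusted p 0.00275), each called in all 6 of those fits. The count of 8 was 4 or 5 without library 1 or 3 of the aged group or any 1 young library. Several of these genes, such as Ptpn6, Vav1 and Lax1, are also active in B cells, whose markers were called higher with age as given above.

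Of the constant region genes of the gamma delta receptor, 2 of 4 tested were higher with age, where 8.09% of all genes tested were. They were Tcrg-C1 (1.33 ± 0.41, edgeR adjusted p 0.0434) and Tcrg-C2 (1.6 ± 0.40, edgeR adjusted p 0.0177). Their counts are small, at 30 to 49 in aged and 9 to 23 in young libraries for Tcrg-C1, the copies are alike, and the count of 2 was 0 or 1 in 5 of the 6 fits that left out 1 library, all but the one without library 1 of the aged group. The 5 genes of the list summed to 6.07 to 10.9 CPM in combination, 4.91 to 7.18 in aged anti-PD-1, 4.01 to 7.06 in aged control and 2.16 to 3.93 in young libraries. Variable segments were thinly covered. The Trbv segments together had 109 to 242 counts a library, at 8.94 ± 0.883 CPM in the combination, 9.63 ± 2.53 in the aged anti-PD-1, 7.67 ± 2.64 in the aged control and 6.77 ± 1.18 in the young group (SD, n = 3 each). The most used Trbv segment took 11.0% to 23.3% of them in a library, and the groups were not tested.

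Lists of T cell states were read in the same way, beside 8.09% of all genes tested called higher with age and 7.16% lower. Among 15 transcription factors of the lineage 4 were higher and 0 lower (median 0.40), led by Ikzf3 (1.12 ± 0.23, edgeR adjusted p 0.00825), a regulator also active in B cells. Of 13 effector and memory genes 4 were higher and 0 lower (median 0.47), among them the granzyme Gzmk at 11.1, 4.52 and 13.8 CPM in aged and 2.37, 1.15 and 0.735 CPM in young libraries (2.77 ± 0.53, edgeR adjusted p 0.00568) and the chemokine receptor Cxcr6 (1.41 ± 0.31, edgeR adjusted p 0.00999). These 3 genes were called in all fits that left out 1 library, while the list counts were 1 for transcription factors and 2 for effector genes without library 3 of the aged or library 2 or 3 of the young group. Naive and recirculating T cell genes had 3 of 10 higher and 1 lower (median 0.32). The gene called lower was Dapl1 (-1.26 ± 0.40, edgeR adjusted p 0.0486), and its call was lost in every fit that left out 1 library (highest edgeR adjusted p 0.196). That list's count of 4 was 2 without library 2 or 3 of the aged or library 1 or 2 of the young group and 1 without library 3 of the young group. Of 12 tested genes that the receptor induces early, 0 were called (median 0.33). The smallest adjusted p there was that of Nfatc1 (0.36 ± 0.14, edgeR adjusted p 0.0882).

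**Figure D5:**
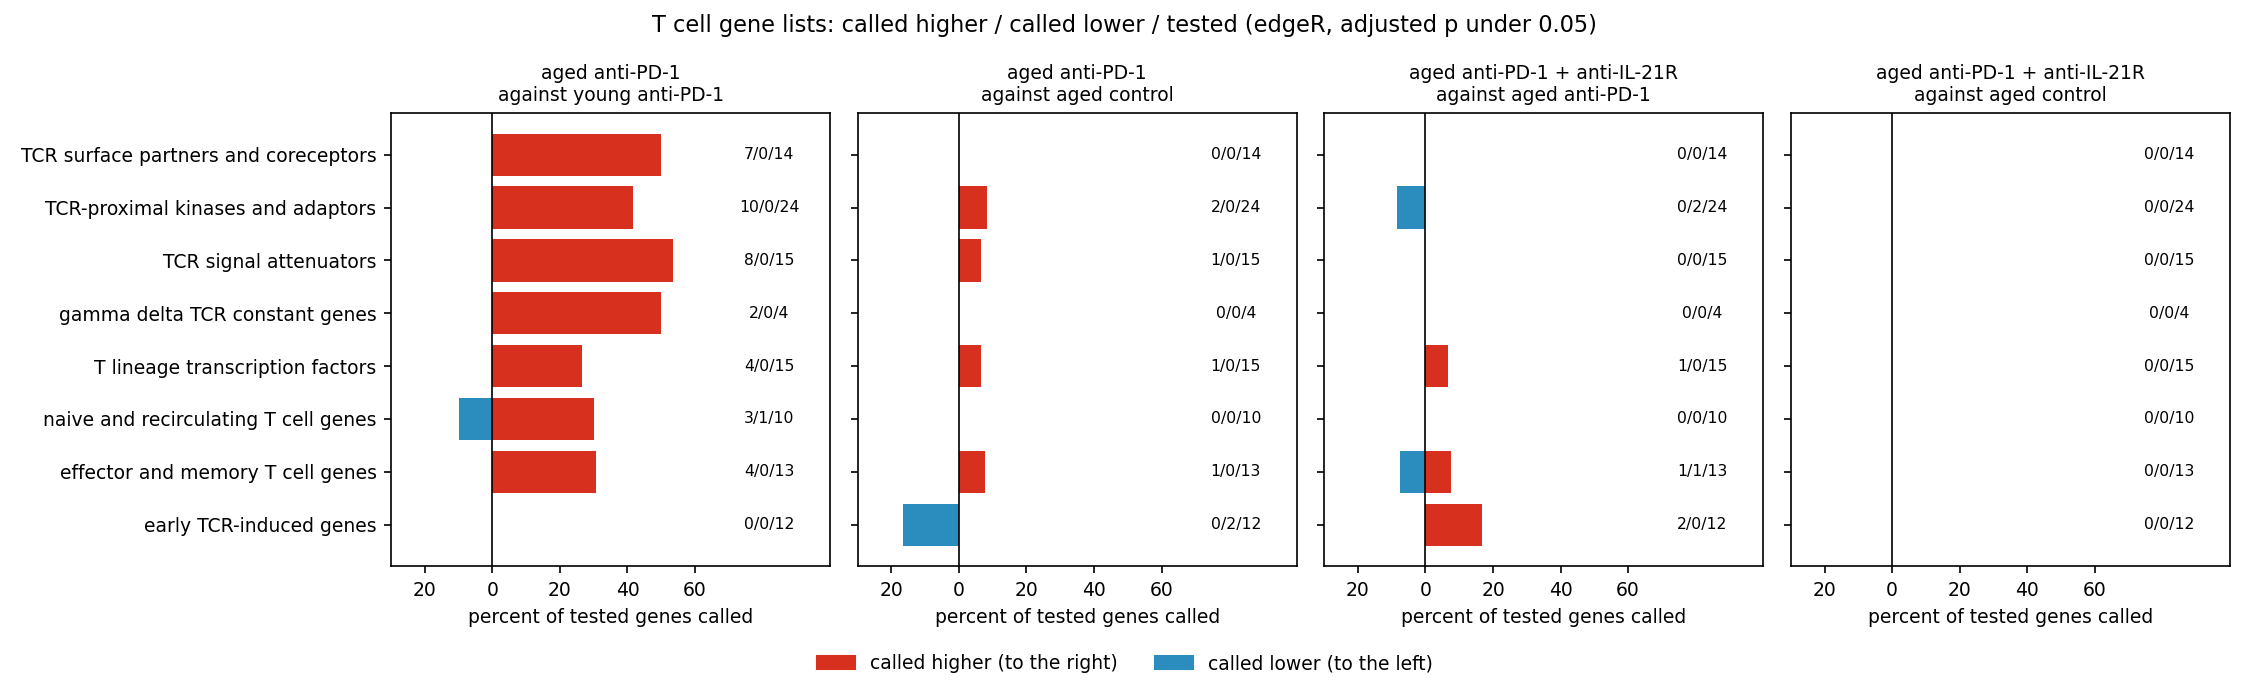
Percent of the tested genes of 8 T cell lists that were called higher (bars to the right) or lower (bars to the left) by edgeR at an adjusted p under 0.05, in each of 4 comparisons; the numbers give called higher, called lower and tested. The bars are longest for aged against young anti-PD-1, with 7 of 14 surface partners and 8 of 15 attenuators higher, against 8.09% of all genes tested. There are none for the combination against aged control.

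Between the aged groups few genes of these lists were called, and several had opposite signs in the comparisons that share the aged anti-PD-1 libraries. Since those libraries stand on opposite sides of the 2 comparisons, a departure of theirs alone gives opposite signs. Plcg1, the phospholipase of the receptor pathway, which other cell types also express, stood at 63.6, 57.1 and 63.0 CPM in combination, 93.7, 108 and 98.4 in aged mice given anti-PD-1 and 71.6, 48.4 and 60.2 in the aged control libraries. All aged anti-PD-1 libraries lay above both other groups. It was called higher with anti-PD-1 than with control antibody (0.73 ± 0.14, edgeR adjusted p 0.00990) and lower in combination than in aged anti-PD-1 lungs (-0.71 ± 0.15, edgeR adjusted p 0.0129). The second call was lost without library 2 of the combination group (edgeR adjusted p 0.0680). The adaptor Nck1 did likewise, at 36.9, 36.4 and 37.3 CPM in combination, 58.5, 49.6 and 56.8 in aged mice given anti-PD-1 and 34.4, 32.2 and 39.1 in the aged control libraries (0.64 ± 0.13 and -0.58 ± 0.13, edgeR adjusted p 0.00990 and 0.0166). Its second call was lost without library 1 of the aged anti-PD-1 or library 2 of the combination group (highest edgeR adjusted p 0.0692). These were the 2 of 24 kinases and adaptors called in each of the 2 comparisons, a share no higher than the 10.9% of all genes called for anti-PD-1 against control and the 9.02% called for the combination against aged anti-PD-1. The first count was 6 without library 1 of the control group, and the second was 1 without library 1 of the aged anti-PD-1 group and 0 without library 2 of the combination group. Beside them, 3 of 4 endothelial markers were higher with anti-PD-1 and lower in the combination, and the 4 summed to 833 to 1176 CPM in combination, 1368 to 1626 with anti-PD-1 alone and 778 to 1295 with control antibody. Of these 3 calls, 1 was left for anti-PD-1 without library 1 or 2 of the aged anti-PD-1 or library 2 or 3 of the control group, and 1 for the combination without its library 2. None of the 4 was at 0 throughout, and their part in the Plcg1 and Nck1 values was not tested.

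Among the early response genes, 2 were called with the opposite signs. Nr4a3, a nuclear receptor induced by antigen receptor signals among others, had 35.2, 42.6 and 46.0 CPM in combination, 15.9, 24.3 and 23.9 in aged mice given anti-PD-1 and 30.6, 34.0 and 39.1 in the aged control libraries. The aged anti-PD-1 libraries were below both other groups. It was lower with anti-PD-1 than with control antibody (-0.70 ± 0.17, edgeR adjusted p 0.0235) and higher in combination than in aged anti-PD-1 lungs (0.95 ± 0.17, edgeR adjusted p 0.00826). The first of these calls was lost without library 1 of the aged anti-PD-1 group or library 2 or 3 of the control group (highest edgeR adjusted p 0.0709). Myc showed the same signs (-0.90 ± 0.15 and 0.72 ± 0.15, edgeR adjusted p 0.00581 and 0.0140), and lost the second call without library 2 of the aged anti-PD-1 or of the combination group (highest edgeR adjusted p 0.0709). These were 2 of 12 tested genes of the list in each comparison, with 3 called for anti-PD-1 against control in number without library 1 of the control group. Of all genes, 10.9% were called for anti-PD-1 against control and 9.02% for the combination against aged anti-PD-1. Nr4a3 and Myc are induced in many cell types of the lung.

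Single genes of other lists were called as well, where 10.9% of all genes were called for anti-PD-1 against control and 9.02% for the combination against aged anti-PD-1. The adaptor Lax1 had 14.9, 13.4 and 16.2 CPM in aged mice given anti-PD-1, all higher than the 8.78, 6.43 and 8.39 CPM of aged controls (0.91 ± 0.16, edgeR adjusted p 0.00699), the 1 of 15 attenuators called there. Gata3, a transcription factor of T cells and innate lymphoid cells, was higher too (0.73 ± 0.19, edgeR adjusted p 0.0268), the 1 of 15 transcription factors (0 without library 2 or 3 of the aged anti-PD-1 group, 2 without library 1 or 3 of the control group), and its call was lost without library 2 or 3 of either group (highest edgeR adjusted p 0.110). Itga1, an integrin of resident T cells and of vessel walls, was the 1 of 13 effector and memory genes called with anti-PD-1, or of 3 without library 1 of the control group (0.98 ± 0.20, edgeR adjusted p 0.0133), a call lost without library 2 of the control group (edgeR adjusted p 0.0521), and it was lower in the combination (-1.04 ± 0.21, edgeR adjusted p 0.0123). In the combination against aged anti-PD-1, Id2 was higher (0.63 ± 0.16, edgeR adjusted p 0.0261), a call lost without library 1 or 2 of either group (highest edgeR adjusted p 0.104), and so was Satb1, a chromatin organiser of T cells (0.95 ± 0.26, edgeR adjusted p 0.0412), which lost its call in every fit that left out 1 library (highest edgeR adjusted p 0.140). No surface partner, gamma delta constant gene or naive T cell gene was called between aged groups by edgeR. The smallest adjusted p among surface partners was that of Icos for anti-PD-1 against control (0.84 ± 0.27, edgeR adjusted p 0.0606) and that of Cd226 for the combination against aged anti-PD-1 (-0.71 ± 0.24, edgeR adjusted p 0.0742). Against the aged control group, 0 genes of the 8 lists were called in the combination group.

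Other cells were read from their markers. B cell markers summed to 466 to 740 CPM in combination, 495 to 546 in aged anti-PD-1, 262 to 475 in aged control and 247 to 290 in young libraries. For anti-PD-1 against control antibody 4 of 10 were called higher, where 5.34% of all genes tested were. Each of these 4 markers lost its call in at least 4 of 6 fits that left out 1 library. Among 6 genes of lymph node stroma and vessels, Cr2 was the 1 with enough counts to be tested and was higher with age (1.84 ± 0.41, edgeR adjusted p 0.0110), a call lost without library 3 of the young group (edgeR adjusted p 0.0545). Glycam1, a mucin of high endothelial vessels, had 2, 9 and 0 counts in combination, 16, 32 and 2 in aged mice given anti-PD-1, 2, 1 and 0 with control antibody and 0, 0 and 0 in young libraries, and Ccl21a had at most 2 counts in any library. Monocyte and macrophage markers had 2 of 8 called higher with age, where 8.09% of all genes tested were. They were the complement genes C1qa (1.61 ± 0.27) and C1qb (1.43 ± 0.28), and the count was 5 without library 2 of the aged group. The median of the 8 was 0.68, against -0.0069 for all genes. Sums of the 8 overlapped between all groups (5929 to 8576 CPM over the aged anti-PD-1 and 6435 to 7857 CPM over the young libraries). Most of each sum was Lyz2, at 5450 to 7763 and 6047 to 7462 CPM in these groups. Of 5 tested markers of type 2 innate lymphoid cells, 0 were called in any comparison by edgeR. How far these cells bear on the values of the 10 genes was not tested.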

How the data were processed

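Whole lung RNA of 12 mouse samples was made into directional poly(A) libraries, per the labels' protocols. The authors deposited raw read counts per gene, with no normalization per the file headers. The submitters' processing notes name the build mm10 and the tools bcl2fastq 1.8.4, HISAT2, Trimmomatic and featureCounts 1.6.3. The annotation release, the strand setting and the treatment of reads that fit several genes are not given in the sources used here. Counts per library ran from 16021877 to 22058620, and their number limits the precision of low genes.

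Genes were filtered with filterByExpr (minimum count 10, minimum total 15), which left 18556 of 49585, and scaled by TMM. A quasi-likelihood model with 4 group means was fitted to all 12 libraries (edgeR 4.0.16, limma 3.58.1, R 4.3.3), with 8 residual degrees of freedom and a common biological coefficient of variation of 0.156. P-values from the F test were adjusted by Benjamini-Hochberg over those genes, and an SE is the absolute log2 fold change over the root of F. The procedure was tested on simulated data. The members and lists were chosen with earlier results of these data known. The genes named are the 10 members, up to 4 called members of each list with the smallest adjusted p (otherwise the 1 with the smallest p), and the 8 genes most like the members; Cd8a, Glycam1, Ptcra, Rag2 and Ccl21a were added after their values were seen, and not all genes the rule takes are printed. Libraries of a group differed beyond counting noise (chi-square per degree of freedom 9.64 to 48.2). Libraries with the same replicate number did not deviate together (18 pairs, median correlation -0.0120, range -0.169 to 0.171, with 2 over 0.1), so they were not paired.

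Alternatives were other scalings (RLE, library totals alone, and TMM leaving immunoglobulin, mitochondrial and haemoglobin genes out), DESeq2 1.42.0, limma-voom, no filter, a mean CPM of at least 1, a replicate block, fits of 2 groups, Trbc1 and Trbc2 as 1 gene, and each library left out. Exon lengths and the Trbc sequences came from GENCODE M21 (GRCm38), in which 9 of the 10 genes had the deposited coordinates, and promoters from RefSeq. Matplotlib 3.10.9 under Python 3.11.15 drew the figures.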

Additional observations from a re-analysis of the deposited data

How the results depend on the processing

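With 3 libraries a group and at most 672 counts a gene, calls on the complex depended on single libraries. For aged against young anti-PD-1, leaving out 1 library gave 0 to 6 of the 10 genes called. It was 2 without the filter, 2 in fits of the 2 groups alone, 2 with limma-voom, 2 with the replicate block and 5 with DESeq2, and 4 elsewhere. Under the block Cd3e and Trac lost their calls (adjusted p 0.0858 and 0.0624) and no other call on the 10 genes changed; the numbers pair no samples. For the combination against aged anti-PD-1, 1 gene was called with library totals alone, and 0 in the other settings. The 14 fold changes that reversed were at most 0.32 in size and were not called. With library totals alone, Cd3d (0.018) and Trbc2 (0.089) reversed for anti-PD-1 against control, and Cd247 (-0.16), Trbc1 (-0.18) and Trbc2 (-0.0071) for the combination against anti-PD-1, where that scaling moved the median of all genes to 0.091 and -0.21. Trbc2 for anti-PD-1 against control was 0.0035 without abundant genes in the scaling and 0.0014 in the fit of 2 groups. With 1 library left out, anti-PD-1 against control ran from -0.42 to 0.20 for Cd3d, -0.24 to 0.30 for Trbc2, -0.053 to 0.51 for Trac and -0.044 to 0.48 for Lck. The combination against anti-PD-1 ran from -0.43 to 0.25 for Cd3e, -0.29 to 0.23 for Cd3g, -0.12 to 0.24 for Cd247, -0.38 to 0.18 for Trac, -0.21 to 0.16 for Trbc1, -0.13 to 0.41 for Trbc2 and -0.52 to 0.019 for Cd5. The combination against control ran from -0.047 to 0.40 for Cd3d, -0.51 to 0.31 for Cd4 and -0.11 to 0.31 for Cd5. Counts over all genes were 2830 for age (1160 to 2237 with 1 library left out), 2025 for anti-PD-1 against control (607 to 1995, and 881 in the fit of 2 groups), 1674 for the combination against anti-PD-1 (260 to 1439, 3038 with library totals, 2595 with DESeq2) and 0 for the combination against control (0 to 13, 11 without the filter, 76 with DESeq2). Of 41 list genes called for age and covered by the naming rule, 23 were called in every fit with 1 library left out, and 7 of 20 and 3 of 12 in the next 2 comparisons. These list counts were added after the data were seen. Where a value moved, the cause was not tested.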
